A study of Homo sapiens with 12 samples.

Results

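The TEAD transcription factors TEAD1, TEAD2, TEAD3 and TEAD4 and the vestigial-like cofactors VGLL1, VGLL2, VGLL3 and VGLL4 were followed in SW872 cells that carried a YAP or TAZ fusion protein and a hairpin against the ATAC complex. The 8 genes were taken by symbol from a table of 58735 genes, whatever their values. SW872 is a human liposarcoma line. In TC cells it stably expressed TAZ-CAMTA1, the fusion of the sarcoma epithelioid hemangioendothelioma, and in YT cells it stably expressed YAP-TFE3, a fusion of a subset of the same tumors. Each line carried a non-targeting hairpin (shNT), a hairpin against YEATS2 (shYEATS2) or a hairpin against ZZZ3 (shZZZ3), which gave 6 groups of 2 libraries. No group lacked a fusion, so shNT is a control for the hairpins only. Per the study's methods the fusion lines were pools of transduced cells. The study lists several hairpins per gene for its screen, and which of them were used for these libraries is not given in the sources used here. The study calls the libraries biological duplicates, while the labels do not say whether they came from separate cultures or transductions, so the p values measure the spread between these libraries. For its RNA sequencing in general the study states that lines with CAMTA1 were collected below confluence and the others after confluence. Whether those lines include the ones with TAZ-CAMTA1 is not stated. If they do, and if that held for these libraries, the fusion and the cell density cannot be told apart in any comparison of YT with TC.

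TEAD proteins bind DNA through a conserved domain but need a cofactor to activate transcription. YAP and TAZ are the cofactors that the Hippo kinases keep out of the nucleus, and both fusions retain the part of YAP or TAZ that binds TEADs. The VGLL proteins dock on the same surface of TEADs through a short vestigial-like motif, and VGLL4 is known as a competitor of YAP that restrains TEAD output. VGLL2 is known from skeletal muscle and VGLL3 from fat and connective tissue. YEATS2 and ZZZ3 are subunits of the ATAC histone acetyltransferase complex, and the comparisons ask how the fusion-driven transcriptome depends on that complex.

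The total counts ranged from 17451893 to 29294805 per library. Levels are given as CPM, the counts scaled to a common library size with TMM normalisation, and levels of different genes are compared only per kilobase (kb) of the canonical transcript. YEATS2 fell in both shYEATS2 groups, from 113 and 123 CPM to 45.5 and 35.1 CPM in TC and from 115 and 117 CPM to 33.9 and 38.5 CPM in YT. ZZZ3 fell in YT shZZZ3, from 71.2 and 49.1 CPM to 12.6 and 29.6 CPM, and was at 25.6 and 60.4 CPM in TC shNT against 21.9 and 22.7 CPM in TC shZZZ3, a difference that did not pass the test (edgeR adjusted p = 0.450). The YEATS2 hairpin left ZZZ3 at 31.4 and 30.7 CPM in YT, under both control libraries of that line. This difference did not pass (log2 difference -0.95, edgeR adjusted p = 0.130). In TC with that hairpin, ZZZ3 stood at 35.8 and 47.3 CPM, between the control libraries. The part of ZZZ3 in the results of YT shYEATS2 was not tested. The libraries of TC shNT and of YT shZZZ3 stood apart from each other. The scaled median absolute deviation of the log2 difference within a pair, over 13258 genes, was 0.711 in TC shNT and 0.621 in YT shZZZ3, against 0.184 to 0.367 in the other groups. The differences of replicate 1 from replicate 2 in these 2 pairs ran along the same genes (r = 0.894 across genes, which are not independent replicates), and they moved with the GC content of the genes. Mesenchymal markers summed to between 5128 and 11690 CPM. Epithelial markers stayed between 0.655 and 2.58 CPM and blood markers between 0.162 and 0.728 CPM in sum. Endothelial markers summed to 19.2 to 112 CPM, and 2 of the 3, PECAM1 and CDH5, were called higher in YT shZZZ3 than in YT shNT. In TC shYEATS2 both were high in replicate 2 alone. PECAM1 was there at 4.90 CPM in replicate 1 and 17.1 CPM in replicate 2, and CDH5 at 27.6 and 91.4 CPM. These levels stand beside each result of YT shZZZ3 and of TC shYEATS2. Their part in those results was not tested.

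All 4 TEAD genes were expressed in every library. TEAD1 (ENSG00000187079) lies on the plus strand of chromosome 11 from 12674421 to 12944737 in hg38, TEAD2 (ENSG00000074219) on the minus strand of chromosome 19 from 49340595 to 49362457, TEAD3 (ENSG00000007866) on the minus strand of chromosome 6 from 35473597 to 35497079, and TEAD4 (ENSG00000197905) on the plus strand of chromosome 12 from 2959330 to 3040676. Of the VGLL genes only VGLL4 (ENSG00000144560, chromosome 3, minus strand, 11556069 to 11771350) was expressed in every library, at 51.9 to 97.1 CPM. VGLL2 (ENSG00000170162, chromosome 6, plus strand, 117265558 to 117273565) and VGLL3 (ENSG00000206538, chromosome 3, minus strand, 86876388 to 86991149) had at most 38 and 19 counts in any library. VGLL1 (ENSG00000102243, chromosome X, plus strand, 136532215 to 136556807) had 3 counts in all, 1 and 2 in the TC shYEATS2 libraries, and was not tested. The other 7 members passed the filter of a mean of 5 counts over the 12 libraries. VGLL2 and VGLL3 passed it only through the groups where they were high. Of the 96 counts of VGLL2, 92 lay in the 4 YT knock-down libraries, and of the 72 counts of VGLL3, 36 lay in the 2 YT shYEATS2 libraries, with a mean of 0.5 and 3.6 counts in the others. Having passed, they had to differ between groups, so their tests and the counts of members that include them are descriptions.

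**Figure D1:**
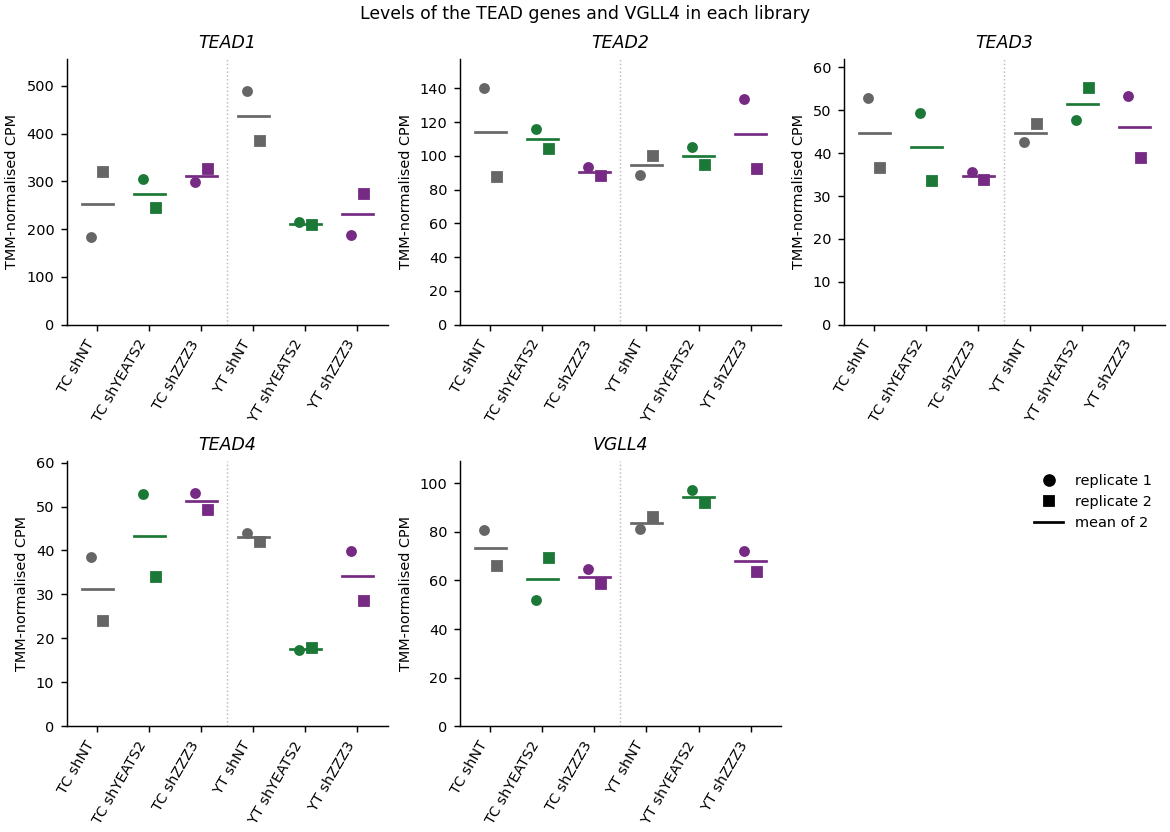
Level of the 4 TEAD genes and VGLL4 in each library, in TMM-normalised CPM on axes that start at 0. Circles are replicate 1, squares replicate 2 and bars the mean of the 2 libraries of a group. TEAD1 and TEAD4 sit low and close together in YT shYEATS2. The pairs of TC shNT and YT shZZZ3 are wide for the 4 TEAD genes, and so is that of TC shYEATS2 for TEAD3 and TEAD4.

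TEAD1, the family member with the widest known expression, was highest in YT cells with the control hairpin. Its levels were 490.0 and 384 CPM in YT shNT, 214 and 208 CPM in YT shYEATS2, and 188 and 274 CPM in YT shZZZ3. Both knock-down pairs lay below both control libraries in YT. In TC cells TEAD1 was at 183 and 320.2 CPM with shNT, 304 and 244 CPM with shYEATS2, and 299 and 325 CPM with shZZZ3, so the 3 TC groups overlapped. In bulk libraries a lower level cannot be told apart from fewer cells that express the gene. The fall in YT shYEATS2 was 1.05 on the log2 scale (SE 0.270, edgeR adjusted p = 0.0198), and 37.8% of all genes tested likewise had both YT shYEATS2 libraries below both YT shNT libraries, as 27.1% had for YT shZZZ3. In YT shZZZ3 the log2 difference was -0.92 (SE 0.270, edgeR adjusted p = 0.0553) and did not pass the threshold. It did pass with DESeq2 (adjusted p = 0.0196). Between the hairpins in YT the log2 difference of TEAD1 was -0.13 (95% interval -0.72 to 0.47). The direct test of the lines did not pass for either hairpin with edgeR. The log2 difference of the effects, YT minus TC, was -1.17 for shYEATS2 (95% interval -2.01 to -0.34, edgeR adjusted p = 0.0832) and -1.23 for shZZZ3 (95% interval -2.07 to -0.40, edgeR adjusted p = 0.108). DESeq2 called both (adjusted p = 0.0448 and 0.0480). Between the control libraries, TEAD1 was 0.80 higher in YT than in TC on the log2 scale (SE 0.270, edgeR adjusted p = 0.0963), which also did not pass. The 3 values moved with the library left out. Without TC shNT replicate 2 the differences of the effects were -1.61 (adjusted p = 0.00987) and -1.63 (adjusted p = 0.0191), and the difference between the control libraries was 1.22 (adjusted p = 0.0136). Without TC shNT replicate 1 they were -0.81 (adjusted p = 0.184), -0.84 (adjusted p = 0.217) and 0.42 (adjusted p = 0.437).

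TEAD4, which is best known from the trophectoderm and muscle, was the one member for which edgeR called the difference between the lines in the response to a hairpin, where DESeq2 also called TEAD1. It was at 44.03 and 41.9 CPM in YT shNT and at 17.4 and 17.8 CPM in YT shYEATS2. The latter were the lowest TEAD4 levels of all 12 libraries. In YT shZZZ3 the levels were 39.9 and 28.5 CPM. In TC the levels were 38.5 and 23.9 CPM with shNT, 52.8 and 33.9 CPM with shYEATS2, and 53.2 and 49.2 CPM with shZZZ3. TEAD4 thus fell in YT shYEATS2 by 1.28 on the log2 scale (SE 0.276, edgeR adjusted p = 0.00794), whereas in TC shYEATS2 the log2 difference was 0.47 (95% interval -0.12 to 1.07). The difference of the effects was -1.76 on the log2 scale (SE 0.388, edgeR adjusted p = 0.0158) and passed the test. Under shYEATS2, TEAD4 was lower in YT than in TC by a log2 difference of -1.30 (SE 0.275, edgeR adjusted p = 0.0105). shZZZ3 gave log2 differences of 0.71 in TC (SE 0.273, edgeR adjusted p = 0.342) and -0.33 in YT (95% interval -0.93 to 0.27), neither of which passed. The TC value ranged from 0.38 without TC shNT replicate 2 to 1.079 without TC shNT replicate 1, and no library left out made it pass (adjusted p from 0.134 to 0.949). The difference of these effects was -1.04 (SE 0.386, edgeR adjusted p = 0.181). Within YT, TEAD4 was lower with shYEATS2 than with shZZZ3 by a log2 difference of -0.96 (SE 0.275, edgeR adjusted p = 0.0619), just outside the threshold.

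TEAD2 and TEAD3 were not called in any of the 11 comparisons. TEAD2 ranged from 87.3 to 140.4 CPM over the 12 libraries and TEAD3 from 33.5 to 55.2 CPM. Both were highest or among the highest in replicate 1 of TC shNT and of YT shZZZ3. The widest pairs of TEAD2 were 140.4 and 87.3 CPM in TC shNT and 134 and 92.5 CPM in YT shZZZ3. For TEAD2 the log2 difference in YT shYEATS2 was 0.08 (95% interval -0.45 to 0.61) and in YT shZZZ3 0.26 (95% interval -0.27 to 0.79). For TEAD3 they were 0.20 (95% interval -0.34 to 0.75) and 0.05 (95% interval -0.50 to 0.59). These intervals do not reach the fall measured for TEAD1 or TEAD4 in YT shYEATS2, and changes of smaller size could not be told from the spread between libraries.

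**Figure D2:**
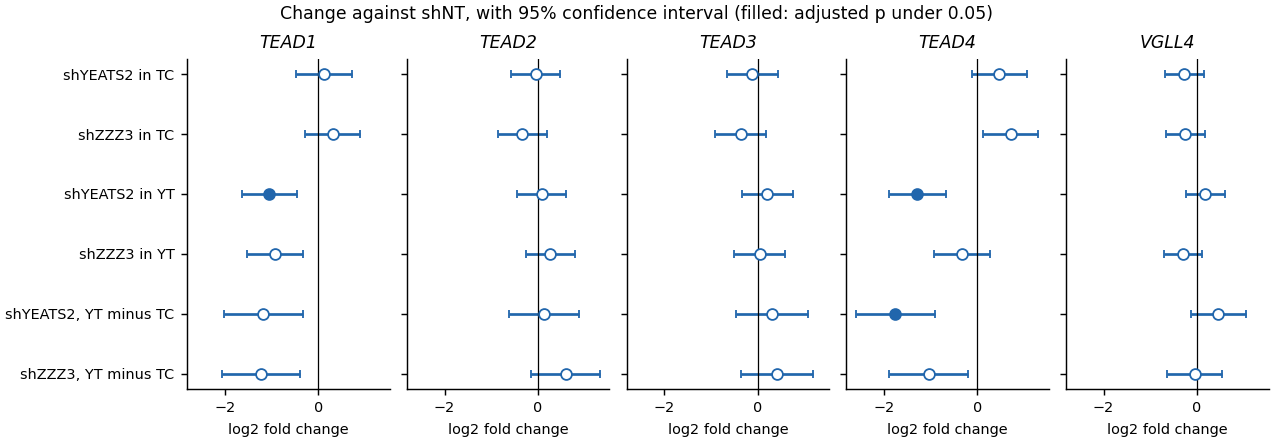
Log2 fold change of each expressed member against shNT within TC and within YT, and the difference of these effects between the lines (YT minus TC). Bars are 95% confidence intervals from the edgeR fit and filled points have an adjusted p under 0.05: TEAD1 and TEAD4 for shYEATS2 in YT, and TEAD4 for shYEATS2 in YT minus TC.

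Of the 7 members tested, 3 were called in YT shYEATS2 against YT shNT (TEAD1, TEAD4 and VGLL2), where 20.7% of all genes were called. In YT shZZZ3 1 member was called (VGLL2), with 10.0% of all genes. In TC shYEATS2 and in TC shZZZ3 edgeR and DESeq2 each called 0 members, where edgeR called 0.0434% and 1.53% of all genes. DESeq2 called 119 and 531 of all 18415 genes there. At an unadjusted p under 0.05 there were 0 members in TC shYEATS2 and 1, TEAD4, in TC shZZZ3. The difference of the shYEATS2 effects was called for 1 member (TEAD4), with 9.37% of all genes. That of the shZZZ3 effects was called for 0 members with edgeR, with 4.32% of all genes. There 3 members (TEAD1, TEAD4 and VGLL2) had an unadjusted p under 0.05. DESeq2 called 1 of them, TEAD1, and 1274 of all 18415 genes. These counts are a description, because the members are few and VGLL2 passed the filter only through the YT knock-down groups. For the counts at an unadjusted p, the share of all genes is not given here.

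With 2 libraries per group, each of the TEAD calls was lost without at least 1 of the libraries compared. When a library of YT shNT or YT shYEATS2 was left out and the lone remaining library was assumed to vary like the other groups, the TEAD1 difference in YT shYEATS2 stayed between -1.21 and -0.86, but its edgeR adjusted p was 0.158 without YT shNT replicate 1, 0.0518 without YT shNT replicate 2, 0.118 without YT shYEATS2 replicate 1 and 0.132 without YT shYEATS2 replicate 2. The TEAD4 difference stayed between -1.31 and -1.25, with adjusted p values of 0.0507, 0.0414, 0.0702 and 0.0637 in the same order. The TEAD4 difference between the lines under shYEATS2 lost its call without TC shYEATS2 replicate 1 (-0.95, adjusted p = 0.0798) and without either YT shYEATS2 library (adjusted p = 0.0983 and 0.0789). The difference of the TEAD4 effects lost it without TC shYEATS2 replicate 1 (-1.38, adjusted p = 0.0541) and without any of the 4 YT libraries (adjusted p from 0.0549 to 0.0771).

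The wide pairs bear on TEAD1, TEAD2, TEAD3 and TEAD4. In TC shNT and in YT shZZZ3 replicate 1 was the low library for TEAD1 and the high one for TEAD2, TEAD3 and TEAD4. TEAD1 transcripts have a GC content of 43.0%, whereas those of TEAD2, TEAD3 and TEAD4 have 58.1%, 59.8% and 60.4%. At the GC content of TEAD1, the trend of all genes placed TC shNT replicate 1 at -0.21 and replicate 2 at 0.15 on the log2 scale, and YT shZZZ3 replicate 1 at -0.09 and replicate 2 at 0.15. At the GC content of TEAD4 the same libraries stood at 0.32, -0.27, 0.22 and -0.28. The trend also differed between YT shYEATS2 and YT shNT, by -0.169 on the log2 scale at the GC content of TEAD1. At the GC contents of TEAD2, TEAD3 and TEAD4 it differed there by 0.235, 0.251 and 0.257. With the trend divided out, TEAD1 was at 213 and 289 CPM in TC shNT, 448 and 363 CPM in YT shNT, 215 and 226 CPM in YT shYEATS2 and 199.6 and 247 CPM in YT shZZZ3. TEAD4 was then at 30.9 and 28.9 CPM in TC shNT, 50.5 and 49.1 CPM in TC shZZZ3, 49.5 and 46.6 CPM in YT shNT, 16.8 and 16.1 CPM in YT shYEATS2, and 34.3 and 34.5 CPM in YT shZZZ3. The pairs of TEAD4 in TC shNT and YT shZZZ3 closed almost fully, and that of TEAD1 in part. In the fit with the trend removed, TEAD1 was called in YT shZZZ3 (-0.86, edgeR adjusted p = 0.00686) and in YT shNT against TC shNT (0.69, edgeR adjusted p = 0.0224), and TEAD4 was called higher in TC shZZZ3 (0.73, edgeR adjusted p = 0.0149). These are not all of its calls. Further members were called by this fit in YT shZZZ3, between the control libraries and for the differences of the effects. The closing section on processing counts them. The part of GC content in the main values was otherwise not tested. Without replicate 1 of TC shNT and of YT shZZZ3 the TEAD1 difference in YT shZZZ3 was -0.65, and without replicate 2 of both it was -1.23.

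**Figure D3:**
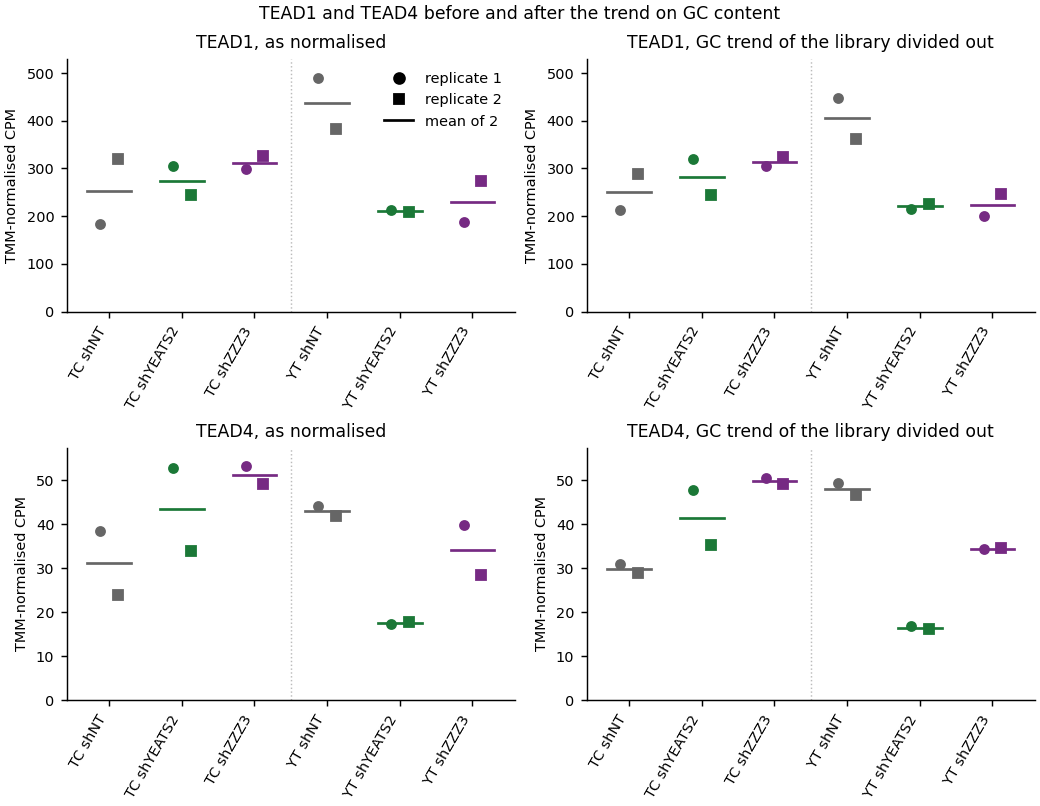
Levels of TEAD1 and TEAD4 per library in TMM-normalised CPM, as normalised (left) and with each library's trend on the GC content of genes divided out (right). Circles are replicate 1, squares replicate 2 and bars the mean of the 2. The TEAD4 pairs of TC shNT and YT shZZZ3 come together on the right, and YT shYEATS2 stays lowest in both.

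Per length of transcript, TEAD2 was the most abundant TEAD in most libraries and TEAD1 took the lead only in YT shNT replicate 1. TEAD2 made up 30.7% to 52.0% of the summed level of the 4 TEAD transcripts (CPM per kb) and TEAD1 15.7% to 39.2%. The sum was 133 and 127 CPM per kb in YT shNT. It was lower, at 97.3 and 94.4 CPM per kb, with shYEATS2 and lay at 123 and 101.3 CPM per kb with shZZZ3. In TC it was 124.2 and 100.4 CPM per kb with shNT and 133 and 104.8 CPM per kb with shYEATS2. With shZZZ3 it was 117.7 and 115 CPM per kb, so the TC groups overlapped. In YT shYEATS2 the share of TEAD1 was 23.4% in both libraries and that of TEAD4 10.4% and 11.03%, against 39.2% and 32.1% for TEAD1 and 19.4% and 19.3% for TEAD4 in YT shNT. The share of TEAD2 stood at 30.7% and 36.3% with the control hairpin of YT against 49.8% and 46.0% with shYEATS2. These shares rest on the canonical transcript of each gene, and the trend on GC content was not divided out of them. With the union of all exons as the length, TEAD1 made up 17.4% to 42.0% and was the largest share in 4 libraries, so the order of TEAD1 and TEAD2 depends on the transcript taken.

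**Figure D4:**
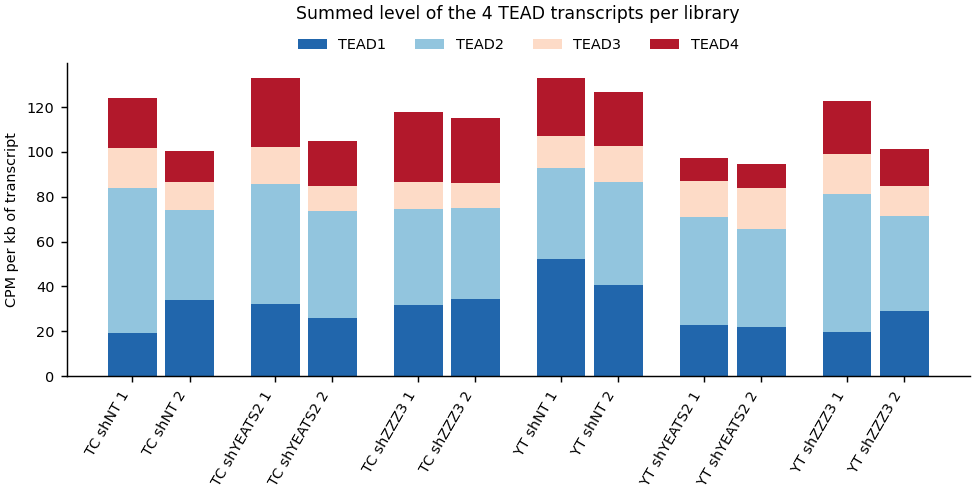
Level of each TEAD transcript per library in CPM per kb of the canonical transcript, stacked, with replicates 1 and 2 of each group side by side on an axis that starts at 0. The TEAD1 and TEAD4 parts are small in both YT shYEATS2 libraries, where the sum is 97.3 and 94.4.

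VGLL2 was detected in few libraries, and those were the YT knock-down libraries. The TC libraries had 1 and 0 counts with shNT, 1 and 0 with shYEATS2, and 0 and 0 with shZZZ3, and YT shNT had 2 and 0. In YT shYEATS2 it had 14 and 8 counts and in YT shZZZ3 38 and 32 counts. All 4 YT knock-down libraries were therefore above the floor of 3 counts and all 8 others at or below it. In CPM the levels were low, 0.498 ± 0.120 (SD, n = 2) in YT shYEATS2 and 1.37 ± 0.0212 (SD, n = 2) in YT shZZZ3. Relative to YT shNT, with 2 counts in all, the summed counts were 9.21 times higher in YT shYEATS2 (exact 95% counting interval 2.26 to 80.8) and 24.9 times higher in YT shZZZ3 (6.63 to 209). edgeR called both (adjusted p = 0.0322 and 0.00541), subject to its passage of the filter through these groups. DESeq2 called that of shZZZ3 and not that of shYEATS2 (adjusted p = 0.0625), and the shYEATS2 call was lost without YT shNT replicate 2 (adjusted p = 0.163), YT shYEATS2 replicate 1 (adjusted p = 0.150) or YT shYEATS2 replicate 2 (adjusted p = 0.0806). The shZZZ3 call was lost without YT shNT replicate 2 alone (adjusted p = 0.0541). All tests of VGLL2 are descriptions, those against TC and between the hairpins included, since it passed the filter only through the YT knock-down groups. Against the TC line with the same hairpin, VGLL2 was 24.5 times higher in YT under shYEATS2 (interval 3.96 to 1010, edgeR adjusted p = 0.0154). Under shZZZ3 it was at least 19.8-fold higher, taking 3 counts over the TC shZZZ3 pair as the floor (edgeR adjusted p = 0.00413). Leaving out any library of the shYEATS2 groups took the first of these above the threshold (adjusted p from 0.0501 to 0.112), and leaving out TC shZZZ3 replicate 1 the latter (adjusted p = 0.0625). Within YT, VGLL2 counts were 2.70 times higher with shZZZ3 than with shYEATS2 (interval 1.65 to 4.58), while the test across libraries did not pass (edgeR adjusted p = 0.137). The difference of the effects between the lines was not called for shYEATS2 (edgeR adjusted p = 0.456) or shZZZ3 (edgeR adjusted p = 0.235). The intervals cover counting error only.

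VGLL2 is the member for which the start of the gene may help a reader. The 250 bases before its start in the RefSeq annotation (GRCh38.p14, plus strand, chr6:117265308-117265557) are shown because VGLL2 went from at or below the floor to detected.
VGLL2: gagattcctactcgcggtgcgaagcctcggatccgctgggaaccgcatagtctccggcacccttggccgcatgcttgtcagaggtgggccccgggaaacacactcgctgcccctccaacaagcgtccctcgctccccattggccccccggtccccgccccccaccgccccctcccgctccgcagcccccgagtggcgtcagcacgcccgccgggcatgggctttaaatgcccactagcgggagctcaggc
The TEAD motif CATTCC was searched on both strands of such windows (as CATTCC or GGAATG). VGLL2 has no match, so no base is in capitals. Of the 35116 windows of the table, 11.9% hold a match. Of the windows of 6 members in the table, 1 for VGLL1 holds a match and those of TEAD2, TEAD3, VGLL3 and VGLL4 hold none. A window without these letters says nothing on binding elsewhere.

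**Figure D5:**
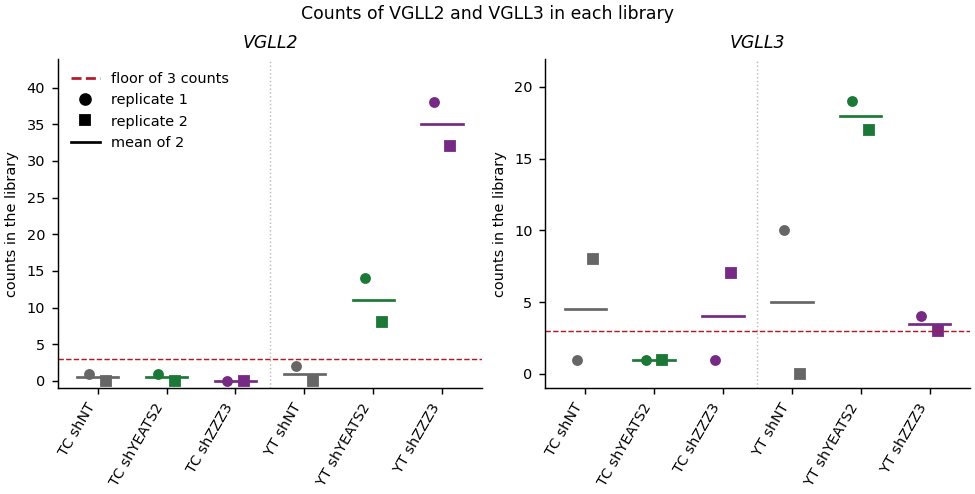
Deposited counts of VGLL2 and VGLL3 in each library, not scaled for depth. Circles are replicate 1, squares replicate 2, bars the mean of the 2 and the dashed line the floor of 3 counts. VGLL2 is above the floor only in the 4 YT knock-down libraries, with 8 to 38 counts, and VGLL3 has its highest counts, 19 and 17, in YT shYEATS2.

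VGLL3 was also near the floor and did not follow VGLL2. It had 19 and 17 counts in YT shYEATS2, but 4 and 3 counts in YT shZZZ3 and 10 and 0 counts in YT shNT. In TC it had 1 and 8 counts with shNT, 1 and 1 with shYEATS2, and 1 and 7 with shZZZ3. In YT shNT, TC shNT and TC shZZZ3 the counts of a pair thus lay on both sides of the floor. Its tests are descriptions, since it passed the filter only through YT shYEATS2. No comparison of VGLL3 passed in the edgeR fit. The nearest was YT against TC under shYEATS2, where the summed counts of 36 and 2 gave a ratio of 20.03 (exact 95% counting interval 5.16 to 172, edgeR adjusted p = 0.0545). DESeq2 called it (adjusted p = 0.0426), and leaving out any of the 4 libraries raised the edgeR adjusted p to between 0.150 and 0.249.

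VGLL4, the competitor of YAP, was at 81.3 and 85.9 CPM in YT shNT, 97.1 and 91.7 CPM in YT shYEATS2, and 72.2 and 63.4 CPM in YT shZZZ3. In TC it was at 80.6 and 65.8 CPM with shNT, 51.9 and 69.3 CPM with shYEATS2, and 64.7 and 58.4 CPM with shZZZ3. Both YT shYEATS2 libraries lay above both YT shNT libraries, as for 36.4% of all genes, and both YT shZZZ3 libraries below them, as for 27.1%, but neither difference passed. The log2 difference was 0.18 in YT shYEATS2 (95% interval -0.24 to 0.59) and -0.30 in YT shZZZ3 (95% interval -0.72 to 0.12), and between the hairpins it was 0.48 (SE 0.190, edgeR adjusted p = 0.176). VGLL4 was called once, as 0.64 higher on the log2 scale in YT than in TC under shYEATS2 (SE 0.190, edgeR adjusted p = 0.0497), at the edge of the threshold. The call was lost without TC shYEATS2 replicate 1 (adjusted p = 0.259) or either YT shYEATS2 library (adjusted p = 0.230 and 0.154), and with no filter on low counts (adjusted p = 0.0768). Exons of ATG7 on the opposite strand overlap exons of VGLL4, with a mean of 766 counts against 1638 for VGLL4. Whether strand was used in the counting is not given in the sources used here, so reads of the shared stretch cannot be told apart.

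Between the lines, 0 members were called with shNT by edgeR or DESeq2. edgeR called 9.23% of all genes there, and DESeq2 called 2255 of 18415. With shNT, 1 member (TEAD1) had an unadjusted p under 0.05. Under shYEATS2 3 members were called (TEAD4 lower and VGLL2 and VGLL4 higher in YT), with 12.2% of all genes, and under shZZZ3 1 (VGLL2), with 2.62%. Between shYEATS2 and shZZZ3, edgeR called 0 members in TC, with 1.20% of all genes, and 0 in YT, with 7.21%. At an unadjusted p under 0.05 there were 0 members in TC, where DESeq2 also called 0. In YT there were 4 (TEAD4, VGLL2, VGLL3 and VGLL4), where DESeq2 called 1, TEAD4. Over all 18415 genes DESeq2 called 492 in TC and 1797 in YT. The share of all genes at the unadjusted threshold is not given here, so counts at it are descriptions. VGLL2 and VGLL3 were tested only through the YT knock-down groups where they were high. The comparisons of each hairpin within a line share their shNT libraries, so their values are not independent.

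Of 8 genes for partners of the TEADs, all tested, 2 rose in YT shYEATS2 and 0 fell, a share near the 20.7% of all genes called there. They were WWTR1, which encodes TAZ, from 185 and 159 CPM to 334 and 253 CPM (log2 difference 0.77, SE 0.200, edgeR adjusted p = 0.0198), and CTBP1, a corepressor, from 81.1 and 75.4 CPM to 149.8 and 173 CPM (1.05, SE 0.240, edgeR adjusted p = 0.0112). Each lost its call without either YT shNT library and without 1 of the YT shYEATS2 libraries, replicate 1 for WWTR1 and replicate 2 for CTBP1. Across the alternatives 0 to 7 of the 8 were called. The count over all genes moved too. It was 8719 of 18415 in YT shYEATS2 when the groups compared were fitted alone. In YT shZZZ3 it was 3937 with the GC trend removed. In YT shYEATS2 the median log2 difference of the 8 genes was -0.30, against -0.01 over all genes. YAP1 was at 226 and 209.9 CPM in YT shNT and 184 and 168 CPM in YT shYEATS2, which did not pass (edgeR adjusted p = 0.410). edgeR called 0 of the 8 in YT shZZZ3, TC shYEATS2 and TC shZZZ3, where it called 10.0%, 0.0434% and 1.53% of all genes. The share of all genes at the unadjusted threshold is not given here. At an unadjusted p under 0.05 there were 3, 0 and 0, and the alternatives, DESeq2 included, called up to 4, 0 and 1. Reads of the fusion transcripts can count to WWTR1 in TC and to YAP1 in YT, and were not told apart from those of the endogenous genes.

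The target genes of the TEADs moved in both directions in YT shYEATS2. Of 22 YAP and TAZ target genes with TEAD sites, all tested, 5 rose and 5 fell (4 to 16 called across the alternatives), where 20.7% of all genes were called, with a median log2 difference of 0.08 against -0.01 over all genes. The 20.7% is that of the main fit, and 8719 of all 18415 genes were called when the groups compared were fitted alone. ANKRD1, a stretch-responsive nuclear cofactor, rose from 1.003 and 0.690 CPM to 8.74 and 5.94 CPM (log2 difference 2.99, SE 0.364, edgeR adjusted p = 0.000194). FOXF2, a mesenchymal forkhead factor, fell from 13.1 and 14.9 CPM to 4.87 and 4.90 CPM (edgeR adjusted p = 0.000968). LATS2, a Hippo kinase that is itself a YAP target, fell from 46.5 and 48.3 CPM to 20.7 and 19.4 CPM (edgeR adjusted p = 0.00119), and F3, tissue factor, rose by 1.40 on the log2 scale (edgeR adjusted p = 0.0121). ANKRD1, FOXF2 and LATS2 kept their calls in all 10 alternatives, and F3 lost its call without any of the 4 libraries compared. In YT shZZZ3 1 rose and 7 fell (2 to 12 called across the alternatives), where 10.0% of all genes were called, with a median of -0.07 against 0.01 over all genes. The 10.0% is likewise that of the main fit, and 3937 of all genes were called with the GC trend removed. ANKRD1 again rose, to 5.24 and 8.12 CPM (2.85, SE 0.364, edgeR adjusted p = 0.000825). AMOTL2, LATS2 and IGFBP3 fell by 1.26, 1.24 and 1.06 on the log2 scale (edgeR adjusted p = 0.0131, 0.00257 and 0.00916). AMOTL2 and IGFBP3 each lost the call without either YT shNT library and without 1 of the YT shZZZ3 libraries. In TC shYEATS2 0 were called by edgeR and by each alternative, DESeq2 included, with 2 at an unadjusted p under 0.05. In TC shZZZ3 1 of the 22 was called with edgeR, where 1.53% of all genes were called. DESeq2 called 6 of the 22 there, and 531 of all 18415 genes tested. At an unadjusted p under 0.05 there were 13. For neither TC comparison is the share of all genes at the unadjusted threshold given here, so those counts are descriptions. The called gene was CCN1, a matricellular protein, which rose from 46.3 and 37.6 CPM to 123 and 113 CPM (edgeR adjusted p = 0.0171) and lost its call without TC shNT replicate 2 or either TC shZZZ3 library. The median of the 22 in TC shZZZ3 was 0.45 against -0.01 over all genes.

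Of 15 Hippo kinases and adaptors, all tested, 1 rose and 2 fell in YT shYEATS2 (2 to 6 called across the alternatives) and 1 rose and 4 fell in YT shZZZ3 (1 to 6 called), where 20.7% and 10.0% of all genes were called, with median log2 differences of -0.21 and -0.29. The share in YT shYEATS2 was near that of all genes in the main fit. In the alternatives the count over all genes moved too. It was 8719 of 18415 in YT shYEATS2 when the groups compared were fitted alone. In YT shZZZ3 it was 3937 with the GC trend removed. WWC1, the adaptor KIBRA, fell in YT shYEATS2 from 16.3 and 16.9 CPM to 4.29 and 2.99 CPM (edgeR adjusted p = 0.000360) in all 10 alternatives. LATS2 fell there as given above, and AMOTL1, a scaffold that binds YAP, rose from 120.7 and 120.3 CPM to 175 and 167 CPM (0.50, edgeR adjusted p = 0.0484), a call lost without any of the 4 libraries compared and with no filter on low counts. In YT shZZZ3 AMOTL1 rose to 209 and 205 CPM (0.78, edgeR adjusted p = 0.0121), a call lost without either YT shNT library and in the fit of the groups alone. AMOTL2 and LATS2 fell as above, STK3, the kinase MST2, fell from 26.6 and 23.4 CPM to 9.21 and 15.1 CPM (edgeR adjusted p = 0.0270), and TAOK3, an upstream kinase, fell from 35.5 and 34.2 CPM to 16.7 and 22.03 CPM (edgeR adjusted p = 0.0360). STK3 and TAOK3 lost their calls without either YT shNT library, without YT shZZZ3 replicate 1 and in the fit of the groups alone, and STK3 also without replicate 1 of both TC shNT and YT shZZZ3. In TC, edgeR called 0 of the 15 with either hairpin, where it called 0.0434% (shYEATS2) and 1.53% (shZZZ3) of all genes. The share of all genes at the unadjusted threshold is not given here. At an unadjusted p under 0.05 there was 1 with shYEATS2 (AMOTL1) and 4 with shZZZ3, and across the alternatives up to 0 and 3 were called. Of 10 muscle genes, listed because VGLL2 and TEAD4 are known from muscle, only 2 passed the filter on low counts. ACTA2, smooth muscle actin, fell by 1.06 on the log2 scale in YT shYEATS2 (edgeR adjusted p = 0.0300), a call lost without any of the 4 libraries compared, and CKM was not called. MYOD1, the myogenic master factor, was too low to be tested, with 15 and 14 counts in YT shZZZ3 and at most 4 counts in each of the 10 other libraries. It was singled out of the list after its counts were seen.

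The genes whose pattern was most like that of a member were found by the root mean square difference of log2 CPM over the 12 libraries, each gene centred on its own mean, among 13253 genes. They were PHF10 and DESI2 for TEAD1 (0.14 and 0.15, where TEAD1 itself varied by 0.41), RMND5B and HINFP for TEAD2 (0.07 and 0.08, against 0.22), HPS1 and CRTC2 for TEAD3 (both 0.11, against 0.26), KCNK5 and CARD10 for TEAD4 (0.11 and 0.16, against 0.54), and DGLUCY and BET1L for VGLL4 (both 0.11, against 0.26). With Pearson's r in its place, KCNK5 again led for TEAD4 (r = 0.979) and DGLUCY for VGLL4 (r = 0.947), while FAS led for TEAD1 (r = 0.950), HINFP for TEAD2 (r = 0.960) and CYP27A1 for TEAD3 (r = 0.916). These values describe 12 libraries that share groups and the GC trend.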

How the data were processed

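The 12 libraries were polyA RNA-seq libraries made with a stranded kit. The authors processed the reads with bcbio and HISAT2 on hg38 and deposited raw counts per gene, and the submitters' processing notes also name bcl2fastq. The study's methods also name Salmon with tximport, and which route gave the deposited counts, and whether strand was used, is not given in the sources used here. Of 58735 genes, 25748 had no count in any library. Total counts ranged from 17451893 to 29294805 per library, which sets the counting precision, and counting intervals and floors (3 counts) cover counting error only.

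The 18415 genes whose mean reached 5 counts were fitted over all 6 groups with edgeR 4.0.16 in R 4.3.3 (TMM, robust quasi-likelihood test, 6 residual degrees of freedom, prior count 2), in 11 comparisons, with Benjamini-Hochberg adjustment over all genes tested and a threshold of 0.05. The fit was first tested on simulated data. Levels of members per kb use GENCODE 44 transcripts, and 99.1% of gene identifiers matched. Members were named whatever their values, and log2 differences are given where the unadjusted p was under 0.05 or beside such a value. Genes of the pathway lists were named where called, at most 4 per list and comparison by size of change, with AMOTL1 in YT shZZZ3, YAP1, CKM and MYOD1 named in addition after their values were seen. The members and lists were chosen with earlier results of these data known.

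The alternatives were DESeq2 1.42.0, its size factors in edgeR (RLE), no filter on low counts, a replicate block, the groups of a comparison alone, the trend of each library on GC content removed (lowess, span 0.3, GC known for 99.4% of genes), and each library left out. Leaving out replicate 1, or replicate 2, of TC shNT and YT shZZZ3 together was chosen after seeing the data.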

Additional observations from a re-analysis of the deposited data

Results flagged for a closer look

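The difference of the TEAD4 response to shYEATS2 between the lines was singled out because the 2 lines differed by a test of the difference itself. The log2 difference of the effects, YT minus TC, was -1.76 (SE 0.388, 95% interval -2.61 to -0.91, edgeR adjusted p = 0.0158), where edgeR called 9.37% of all genes. TEAD4 was lower in both YT shYEATS2 libraries than in both YT shNT libraries, as were 37.8% of all genes, and its levels overlapped in TC. With 1 library left out the difference ranged from -2.125 to -1.375, and the call depended on the library, as given above. No group had more than 2 libraries, so no library could be tested for standing far from the others of its group.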

How the results depend on the processing

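For the members, 21 values were recomputed in 258 alternatives, and 188 kept their direction and side of the threshold, 29 lost their call, 41 gained one and 0 changed direction. The count over all genes moved with many of these alternatives too, as given below. Counts of members called are therefore descriptions, and they changed as follows, where the cause was not tested. In YT shYEATS2 against shNT they ranged from 0 to 1 with a library left out (3 with all). In YT shZZZ3 against shNT (1) they were 2 with DESeq2, no filter, the replicate block or replicate 1 of TC shNT and YT shZZZ3 left out, 3 with the GC trend removed or replicate 2 of both left out, and 0 to 2 with a library left out. For the difference of the shYEATS2 effects (1) they were 2 with DESeq2, the GC trend removed or either pair of libraries left out, 3 with no filter, and 0 to 2 with a library left out. For the difference of the shZZZ3 effects (0) they were 1 with DESeq2, no filter or replicate 1 of both left out, 2 with the GC trend removed or replicate 2 of both left out, and 0 to 1 with a library left out. In TC shZZZ3 (0) they were 1 with the GC trend removed or replicate 1 of both left out and 2 with replicate 2 of both left out. For YT against TC with shNT (0) they were 1 with no filter, 2 with the GC trend removed or replicate 2 of both left out, and 0 to 1 with a library left out. Under shYEATS2 (3) they ranged from 0 to 3 with a library left out. Under shZZZ3 (1) they were 2 with the GC trend removed or replicate 1 of both left out, and 0 to 1 with a library left out. Between the hairpins in YT (0) they were 1 with DESeq2, the replicate block, the GC trend removed or replicate 2 of both left out, and 2 with no filter, the groups alone or replicate 1 of both left out.

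The replicate numbers were not taken to pair the libraries. The deviations of same-numbered libraries correlated across genes from -0.433 to 0.894 over the pairs of groups. With the replicate block, TEAD1 passed in YT shZZZ3 (-0.94, edgeR adjusted p = 0.0373), VGLL3 in YT against TC under shYEATS2 (adjusted p = 0.0462) and 28 genes in TC shYEATS2 against 8.

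Over all genes, 81 of 134 counts moved by more than 1.5 times. In TC shYEATS2 (8) the count was 119 with DESeq2, 213 with no filter, 4 with the groups alone, 66 with the GC trend removed, and 17 and 24 with replicate 1 or 2 of both left out. In TC shZZZ3 (281) these were 531, 744, 157, 723, 914 and 725. In YT shYEATS2 (3821) it was 8719 with the groups alone and 5853 with the GC trend removed. In YT shZZZ3 (1846) it was 3937 with the GC trend removed and 5028 with replicate 2 of both left out. For the difference of the shYEATS2 effects (1725) it was 2611 with no filter, 3757 with the GC trend removed and 5830 with replicate 2 of both left out. For that of the shZZZ3 effects (795) it was 1274 with DESeq2, 1549 with no filter, 2072 with the GC trend removed, and 2377 and 4778 with replicate 1 or 2 of both left out. For YT against TC with shNT (1699) it was 2710 with no filter, 941 with the groups alone, 3507 with the GC trend removed and 6108 with replicate 2 of both left out. Under shYEATS2 (2242) it was 4610 with the GC trend removed, and under shZZZ3 (482) 789 with DESeq2, 1214 with no filter, 1116 with the GC trend removed and 1696 with replicate 1 of both left out. Between the hairpins it was 492 with DESeq2, 751 with no filter, 42 with the groups alone and 704 with the GC trend removed in TC (221), and 2322 with no filter, 3102 with the GC trend removed and 4440 with replicate 1 of both left out in YT (1327). VGLL1, VGLL2 and VGLL3 are limited by counts of at most 38, and the other members by the spread between 2 libraries.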
